A study of Mus musculus with 4 samples.

Results

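Metallothionein 1 (Mt1) and metallothionein 2 (Mt2) are 2 of the 31053 genes counted in single cells from the ends of growing mouse long bones. They were taken by gene symbol and chosen by their measured levels, which had been seen to be higher at postnatal day 19 than at day 13, so every comparison of ages below is a description and has no test. Cells came from tibial and femur epiphyses, which hold articular cartilage, growth plate, bone and marrow. The mutant mice are labelled Sox9fl:fl AcanCreERT2/+, that is, both copies of Sox9 floxed and the tamoxifen-dependent recombinase CreERT2 driven by Acan, a gene of cartilage cells, and the other mice are labelled wild type. The 4 libraries are mutant day 19, wild type day 19, mutant day 13 and wild type day 13, 1 of each, so a library is the only sample of its group. The tamoxifen schedule, the floxed exons, the strain, the number of mice per library and any allele or injection of the wild-type mice are not stated in the labels.

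Metallothioneins are small, cysteine-rich proteins that bind zinc and copper in the cell. Their genes are switched on by free zinc through the factor MTF1, which binds metal response elements in their promoters, and also by glucocorticoids, by interleukin 6 acting through STAT3, and by oxidative stress. In cartilage they are known as zinc-responsive genes of the chondrocyte, the cell that makes cartilage matrix under control of Sox9.

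Both genes lie on the plus strand of chromosome 8 (GRCm38, GENCODE M21). Mt2 (ENSMUSG00000031762) spans 94172664 to 94173568 and Mt1 (ENSMUSG00000031765) spans 94179082 to 94180327, with 5513 bases between them and 3 exons each. The relatives Mt3 (94152607 to 94154146) and Mt4 (94137197 to 94139031) lie upstream on the same strand. The main annotated transcripts of Mt1 and Mt2, of 549 and 511 bases, share no stretch of 30 bases with each other. Over all annotated transcripts, Mt2 shares such a stretch with 1 other gene, Pip5k1a, and Mt1 with 0. The promoters are shown because the metal response element is the motif the family is known for. They are RefSeq windows from 250 bases before to 50 bases after each RefSeq start (GRCm38.p6, plus strand, chr8:94178839-94179138 for Mt1 and chr8:94172368-94172667 for Mt2), and capitals mark matches to the core of the metal response element, TGCACNC or TGCGCNC, on either strand.
Mt1: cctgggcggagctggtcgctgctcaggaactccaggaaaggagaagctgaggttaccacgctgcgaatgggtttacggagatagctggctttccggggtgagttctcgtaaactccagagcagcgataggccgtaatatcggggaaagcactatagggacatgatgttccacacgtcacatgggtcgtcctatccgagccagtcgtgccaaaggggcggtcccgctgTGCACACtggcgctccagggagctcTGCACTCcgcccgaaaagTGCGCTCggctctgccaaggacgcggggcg
Mt2: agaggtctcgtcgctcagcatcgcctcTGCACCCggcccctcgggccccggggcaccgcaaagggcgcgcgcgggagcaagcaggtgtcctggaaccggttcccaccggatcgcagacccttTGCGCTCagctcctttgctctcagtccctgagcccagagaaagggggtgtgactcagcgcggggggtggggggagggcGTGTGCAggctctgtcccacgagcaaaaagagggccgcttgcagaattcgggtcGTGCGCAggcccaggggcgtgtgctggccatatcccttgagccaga
The Mt1 window held 3 matches and the Mt2 window held 4, none of which overlapped another. Of 32851 mouse promoters of the same length, 25.7% held at least 1 match, 1.97% at least 3 and 0.517% at least 4. The antioxidant response element, searched as TGACNNNGC on both strands, had 0 matches in the Mt1 window and 1 in the Mt2 window, against at least 1 in 12.4% of promoters. The E-box CACGTG had 0 matches in either window and at least 1 in 7.15% of promoters. A match is a match of letters and not a measured binding site. The windows end inside exon 1, which runs on to 94179338 in Mt1 and to 94172875 in Mt2. Bases past the windows were not searched, so these counts, the 0 matches included, hold for the windows only.

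The libraries held 70507107 to 76080803 unique molecular identifiers (UMIs, the counted RNA molecules) in 8053 to 12714 barcodes. After filters and removal of doublets 9629, 7122, 7245 and 6186 cells remained in mutant day 19, wild type day 19, mutant day 13 and wild type day 13. Any pair of libraries shared 10 to 33 cell barcodes. Levels are UMIs summed over a group of cells and divided by all UMIs of those cells, as CPM, and their 95% intervals cover counting error only. Chondrocyte-like cells numbered 2136, 1022, 2400 and 4195 in the same order of libraries, and no cartilage marker of the list used was at 0 in them. Sox9 in these cells was 180 and 195 CPM in the mutant at days 19 and 13, against 461 and 358 CPM in wild type at days 19 and 13, but these 3′ counts may lie outside the deleted part and so check nothing. Acan, the gene that carries the recombinase, was 1387 and 1141 CPM in the mutant at days 19 and 13, against 4416 and 4397 CPM in wild type at days 19 and 13.

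Mt1 was high in macrophage-like, fibroblast-like and chondrocyte-like cells and lower in the other named blood classes. In fibroblast-like and tendon-like cells Mt1 stood at 1186 CPM in mutant day 19, 575 CPM in wild type day 19, 400 CPM in mutant day 13 and 250 CPM in wild type day 13. Chondrocyte-like cells had 786 CPM in mutant day 19, 646 CPM in wild type day 19, 477 CPM in mutant day 13 and 304 CPM in wild type day 13. Macrophage-like cells, named from the complement genes C1qa, C1qb and C1qc, had 575 CPM in mutant day 19, 473 CPM in wild type day 19, 687 CPM in mutant day 13 and 820 CPM in wild type day 13. Osteoblast-like cells, the bone-forming cells, had 535 CPM in mutant day 19, 76.6 CPM in wild type day 19, 175 CPM in mutant day 13 and 68.7 CPM in wild type day 13. These 4 classes ranked highest in the mean over libraries among classes found in all 4 libraries, at 639 CPM in macrophage-like, 603 in fibroblast-like, 553 in chondrocyte-like and 214 in osteoblast-like cells. The ranges of neighbours in this order overlapped, so the order of the first 3 is not fixed by these libraries, while chondrocyte-like cells stood above osteoblast-like cells in 4 of 4 libraries. Pericyte-like cells reached 20 cells only in mutant day 13, where they had 1080 CPM of Mt1 and 312 CPM of Mt2.

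Below them in the mean over libraries stood the myeloid progenitor-like cells, named from the granule genes Elane and Mpo, with a narrow range of 156 to 196 CPM of Mt1. In wild type they stood above osteoblast-like cells, at 196 against 76.6 CPM at day 19 and 156 against 68.7 CPM at day 13. Endothelial-like, erythroid-like, monocyte-like, T and NK cell-like, B cell-like and neutrophil-like cells had means of 36.3 to 72.0 CPM. B cell-like cells had 50.2 CPM in mutant day 19, 22.1 CPM in wild type day 19, 45.4 CPM in mutant day 13 and 38.5 CPM in wild type day 13. Free RNA in the droplets can give UMIs of this size to cells that do not express a gene. An unnamed cluster led by Prss34 and Mcpt8, proteases of basophils and mast cells, and by Pf4 and Ppbp, genes of megakaryocytes and platelets, stood above these classes. It had 257 CPM of Mt1 in mutant day 19, 262 CPM in wild type day 19, 321 CPM in mutant day 13 and 299 CPM in wild type day 13. Its Mt2 level was 123 CPM in mutant day 19, 79.8 CPM in wild type day 19, 145 CPM in mutant day 13 and 149.6 CPM in wild type day 13, so in wild type day 13 it exceeded that of fibroblast-like cells.

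Mt2 followed another order. Fibroblast-like cells were highest among classes found in all 4 libraries, with 678 CPM in mutant day 19, 259 CPM in wild type day 19, 167 CPM in mutant day 13 and 63.9 CPM in wild type day 13, above chondrocyte-like cells in 4 of 4 libraries. Chondrocyte-like cells had 268 CPM in mutant day 19, 98.4 CPM in wild type day 19, 125 CPM in mutant day 13 and 51.3 CPM in wild type day 13. Erythroid-like cells had 31.8 CPM in mutant day 19, 5.19 in wild type day 19, 46.3 in mutant day 13 and 56.4 in wild type day 13. In wild type day 13 they thus stood above chondrocyte-like cells. Macrophage-like cells, among the 3 classes with the highest mean of Mt1 over the 4 libraries, had only 36.5 CPM of Mt2 in mutant day 19, 21.7 in wild type day 19, 51.0 in mutant day 13 and 37.9 in wild type day 13. Myeloid progenitor-like cells had 2.50 to 11.9 CPM of Mt2 and were last.

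**Figure D1:**
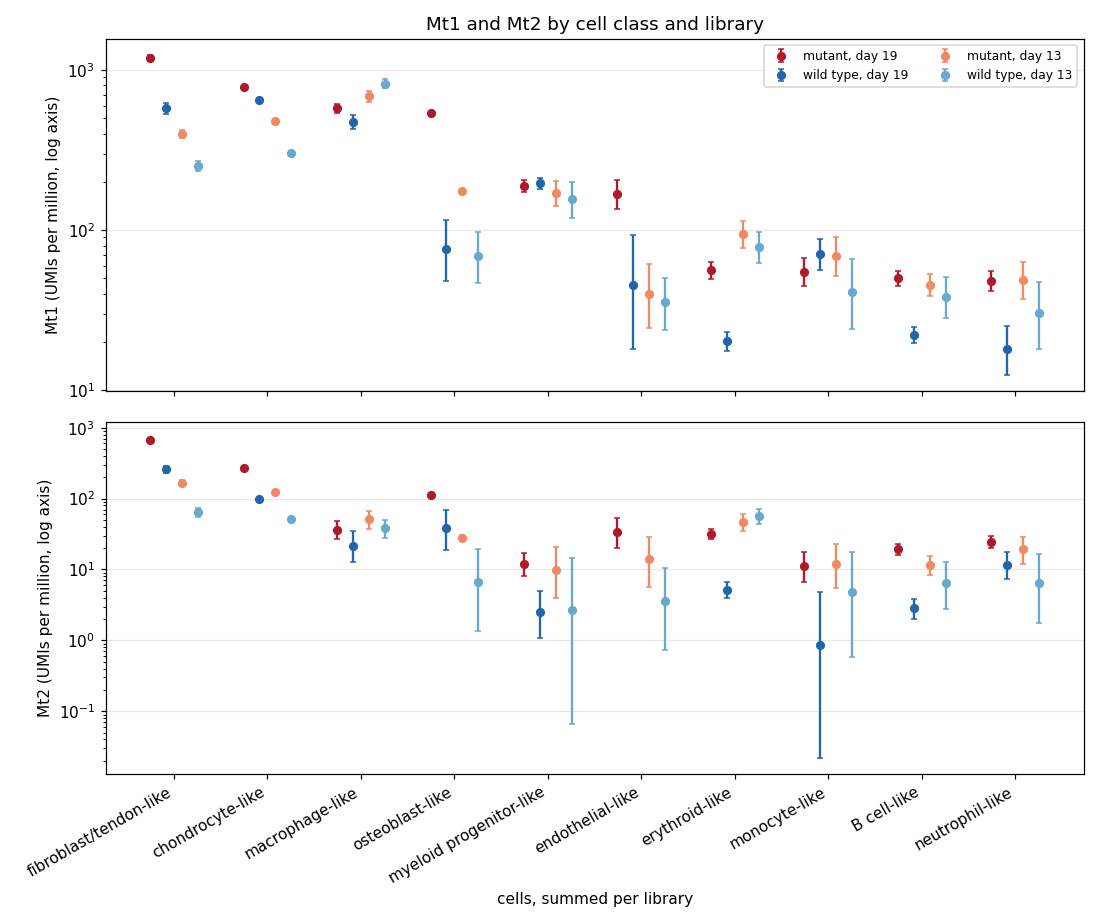
Levels of Mt1 (upper panel) and Mt2 (lower panel) in CPM on a log axis, by cell class and library, with 1 library per group. Bars are exact Poisson 95% intervals, and a class with no UMI of the gene (Mt2 in wild-type endothelial-like cells of day 19) has no point. Fibroblast-like and chondrocyte-like cells are high for both genes, and macrophage-like cells are high for Mt1 (473 to 820) but not for Mt2 (21.7 to 51.0).

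The balance of both genes therefore differed between kinds of cell in every library. Mt1 made up 93.1% to 95.6% of the summed Mt1 and Mt2 UMIs in macrophage-like cells and 94.0% to 98.7% in myeloid progenitor-like cells. In fibroblast-like cells the Mt1 share was 63.6% in mutant day 19 (exact 95% interval 61.8 to 65.4), 68.9% in wild type day 19, 70.6% in mutant day 13 and 79.7% in wild type day 13 (76.9 to 82.2). In chondrocyte-like cells it was 74.5% in mutant day 19 (74.0 to 75.1), 86.8% in wild type day 19 (86.2 to 87.3), 79.2% in mutant day 13 (78.6 to 79.8) and 85.6% in wild type day 13 (85.1 to 86.1). The mutant share was thus the lower one at both ages in chondrocyte-like cells. In erythroid-like cells the Mt1 share was 63.8% in mutant day 19, 79.5% in wild type day 19, 67.1% in mutant day 13 and 58.1% in wild type day 13 (49.7 to 66.2). Its interval lay below the share over all kept cells in every library. In B cell-like cells the Mt1 share was 72.4%, 88.7%, 79.7% and 85.7% in mutant day 19, wild type day 19, mutant day 13 and wild type day 13, and in each library the interval held the share over all kept cells, which was 74.7%, 85.9%, 78.1% and 85.4% in the same order. Within that class the cluster led by Gm26917, Igll1 and Vpreb1 had a share of 99.3% in wild type day 19 (95.9 to 99.98). Its Mt1 level there was 144.5 CPM, against 9.48 to 17.4 CPM in the other B cell-like clusters. It held 134 of the 297 Mt1 UMIs of the class in that library. In mutant day 19 its Mt1 level was 65.3 CPM and its share 80.0% (68.7 to 88.6). The shares in macrophage-like and myeloid progenitor-like cells lay above that of all kept cells in every library, and the part of free RNA in these shares was not tested.

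**Figure D2:**
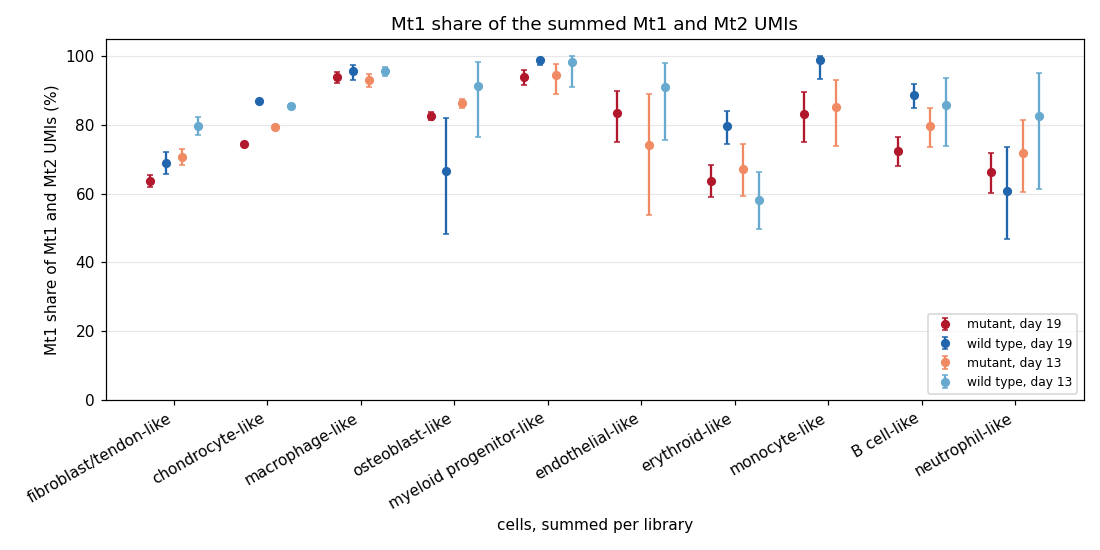
Share of Mt1 in the summed UMIs of Mt1 and Mt2 (percent), by cell class and library, with exact 95% binomial intervals, for sums of 20 or more UMIs. Macrophage-like and myeloid progenitor-like cells sit between 93.1% and 98.7%, and fibroblast-like cells between 63.6% and 79.7%.

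Within cartilage the class value hides large differences between clusters, and the libraries fill the clusters unequally. Most wild-type chondrocyte-like cells lay in a cluster led by Ucma, Sfrp5 and Frzb and in one led by C1qtnf3 and Prelp. Most mutant cells lay in a cluster led by Tmem213 and Sfrp2 and in one led by Cryba2 and Mmp13, which held at most 25 wild-type cells in any library. A cluster led by Prg4 and Cilp, genes of the superficial articular zone, a cluster led by Col10a1 and Ihh, genes of hypertrophic and prehypertrophic chondrocytes, and a cycling cluster led by Cdk1 and Prc1 held cells of every library.

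In the Prg4 and Cilp cluster Mt1 was 747 CPM in mutant day 19 and 450 CPM in mutant day 13, against 132 CPM in wild type day 19 and 173 CPM in wild type day 13. Mt2 was 278 CPM in mutant day 19 and 118 CPM in mutant day 13, against 26.0 CPM in wild type day 19 and 32.0 CPM in wild type day 13. For both genes the mutant libraries stood above the wild-type libraries, but the share of all genes that part in this way was not counted. The mutant to wild-type ratio was 5.65-fold for Mt1 at day 19 and 2.60-fold at day 13, and for Mt2 it was 10.7-fold at day 19 and 3.70-fold at day 13.

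In the Ucma and Sfrp5 cluster, by contrast, Mt1 was 736 CPM in mutant day 19 and 741 CPM in wild type day 19, and 426 CPM in mutant day 13 and 410 CPM in wild type day 13. The log2 ratio of mutant to wild type at day 19 was -0.01, with a 95% counting interval of -0.08 to 0.06, and at day 13 it was 0.05, with one of -0.03 to 0.14. Mt2 in the same cells was 259 CPM in mutant day 19 and 121 CPM in wild type day 19, and 61.2 CPM in mutant day 13 and 82.5 CPM in wild type day 13. The genotypes therefore stood in opposite order for Mt2 at the 2 ages.

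The Col10a1 and Ihh cluster was ordered in another way. Mt1 was 233 CPM in mutant day 19 and 351 CPM in wild type day 19, and 423 CPM in mutant day 13 and 69.2 CPM in wild type day 13. Mt2 was 64.1 CPM in mutant day 19 and 84.6 CPM in wild type day 19, and 91.0 CPM in mutant day 13 and 7.57 CPM in wild type day 13. The wild-type library of day 13 stood apart below the other 3 for both genes.

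Of the clusters with cartilage markers, 3 could not be given a class. The cluster led by Myoc, Pi15, Ogn and Penk held 823 mutant cells at day 19 and 927 at day 13, against 8 and 9 wild-type cells at days 19 and 13. Mt2 was among its 10 leading genes, although Mt1 and Mt2 were left out of the clustering. Its Mt1 level was 1776 CPM in mutant day 19 and 735 CPM in mutant day 13, and its Mt2 level was 650 CPM in mutant day 19 and 246 CPM in mutant day 13. The few wild-type cells gave 178 CPM of Mt1 at day 19 (17 UMIs) and 1384 CPM at day 13 (124 UMIs). In mutant day 19 this cluster held 12.2% of all UMIs of kept cells but 33.6% of the Mt1 UMIs and 36.3% of the Mt2 UMIs, and in mutant day 13 it held 15.01% of all UMIs, 27.7% of Mt1 and 33.2% of Mt2. The cluster led by Mepe and Bglap2, with markers of both osteoblasts and chondrocytes, held cells of every library (218, 55, 296 and 113 in mutant day 19, wild type day 19, mutant day 13 and wild type day 13). Its Mt1 level was 741 CPM in mutant day 19 and 331 CPM in mutant day 13, against 28.2 CPM in wild type day 19 and 29.4 CPM in wild type day 13. Its Mt2 level was 180 CPM in mutant day 19 and 105.2 CPM in mutant day 13, against 10.01 CPM in wild type day 19 and 4.58 CPM in wild type day 13. The wild-type levels of Mt1 here lay within the range of B cell-like cells (22.1 to 50.2 CPM). The third unnamed cluster, of 280 cells, was led by a mixture of genes of stroma (Cxcl12, Lpl) and blood (Prg2, Bpgm), with a median of 2312 UMIs per cell. Its Mt1 level was 830 CPM in mutant day 19, 390 CPM in wild type day 19, 245 CPM in mutant day 13 and 233 CPM in wild type day 13.

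In the cycling cluster Mt1 was 772 CPM in mutant day 19, 244 CPM in wild type day 19, 436 CPM in mutant day 13 and 281 CPM in wild type day 13. Mt2 there was 254 CPM in mutant day 19, 14.8 CPM in wild type day 19, 107 CPM in mutant day 13 and 13.9 CPM in wild type day 13, the wild-type values resting on 8 and 14 UMIs. The clusters found almost only in mutants were high: the Tmem213 and Sfrp2 cluster had 942 CPM of Mt1 at day 19 and 539 CPM at day 13, and the Cryba2 and Mmp13 cluster had 1119 CPM at day 19 and 454 CPM at day 13. The C1qtnf3 and Prelp cluster, found almost only in wild type, had 907 CPM at day 19 and 271 CPM at day 13.

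**Figure D3:**
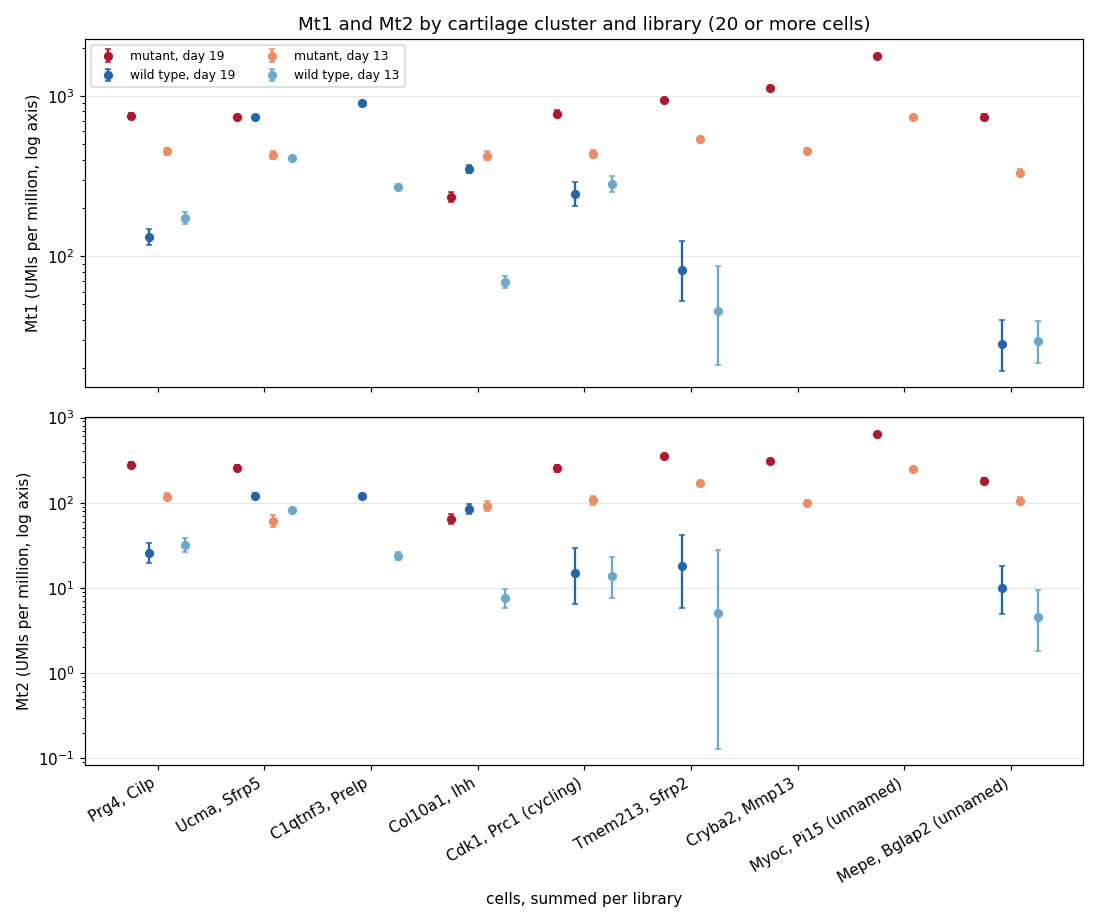
Levels of Mt1 (upper panel) and Mt2 (lower panel) in CPM on a log axis, by cartilage cluster (named by leading genes) and library, with exact Poisson 95% intervals. Sums of fewer than 20 cells are left out. In the Prg4 and Cilp cluster both mutant libraries stand above both wild-type libraries, and the share of all genes that do so was not counted. In the Ucma and Sfrp5 cluster the genotypes lie together for Mt1 at each age.

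The mutant alleles are designed to delete Sox9 in cells that use Acan, and the genotype comparison asks which genes differ between mutant and wild type. It was tested with the edgeR quasi-likelihood test on UMI sums of the 4 libraries with genotype and age as terms, which leaves 1 residual degree of freedom. Its p-values rest on how far the genotype effect differs between ages and on spread shared across genes, and do not measure the spread between mice. The SE given after ± is the size of the log2 fold change divided by the square root of the F value of this test. The SE has the same limits and does not measure the spread between libraries of a group. An exact permutation test of 2 against 2 libraries could reach no p below 0.333.

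In chondrocyte-like cells Mt2 rose in mutants, with a log2 fold change of 1.16 ± 0.129 (SE, 4 libraries, edgeR adjusted p = 2.90e-04). It was higher in mutants at both ages, by 2.73-fold at day 19 and 2.44-fold at day 13, and the call was lost without the age term (1.21, adjusted p = 0.110). Mt1 did not pass the test, at 0.26 ± 0.1403 (adjusted p = 0.218), although its plain ratio was 1.22-fold at day 19 and 1.57-fold at day 13, and its mutant and wild-type libraries overlapped (786 and 477 CPM against 646 and 304 CPM). In this class 23.8% of 14542 genes tested were called in either direction and 12.9% were called higher, so a call of Mt2 is 1 of many. The class compares cells of different clusters: without the pair of clusters found almost only in mutants, the log2 fold change of Mt1 was -0.02 (adjusted p = 0.95), and with the Myoc and Pi15 cluster added it was 0.59 (adjusted p = 0.0193). Mt2 moved too, to 0.76 without the pair (edgeR adjusted p = 0.00526) and to 1.56 with the added cluster (edgeR adjusted p = 5.98e-04). Summed CPM of the immediate early and heat shock genes, which cell dissociation is known to induce, was 4087 in mutant day 19, 2905 in wild type day 19, 4124 in mutant day 13 and 2556 in wild type day 13. Fibroblast and tendon markers also moved with genotype in this class, at 4959 and 5733 CPM in the mutant at days 19 and 13, against 1666 and 1970 CPM in wild type at days 19 and 13. Chondrocyte markers summed to 58247 and 49153 CPM in the mutant at days 19 and 13, against 109334 and 114112 CPM in wild type at days 19 and 13. The part of these 3 lists in the result was not tested.

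Within single clusters the same test gave different answers. In the Prg4 and Cilp cluster both genes rose in mutants, Mt2 by 2.55 ± 0.198 (adjusted p = 1.14e-17) and Mt1 by 1.88 ± 0.199 (adjusted p = 5.29e-12), where 8.26% of 10187 genes were called and 4.62% were called higher. DESeq2 on the same sums gave Mt1 an adjusted p of 0.0645, so that call rests on the choice of test. Immediate early and heat shock genes summed to 5238 CPM in mutant day 19, 3529 in wild type day 19, 4899 in mutant day 13 and 3799 in wild type day 13 in this cluster. Fibroblast and tendon markers summed to 6413 and 7210 CPM in the mutant at days 19 and 13, against 3297 and 4138 CPM in wild type at days 19 and 13. Chondrocyte markers summed to 62130 and 58448 CPM in the mutant at days 19 and 13, against 113381 and 113092 CPM in wild type at days 19 and 13, and the part of these lists in the result was not tested. In the Mepe and Bglap2 cluster Mt1 rose by 3.91 ± 0.257 (adjusted p = 4.07e-23) and Mt2 by 4.14 ± 0.279 (adjusted p = 1.51e-22), with 9.02% of 9162 genes called and 4.31% called higher. The plain ratio of Mt1 there was 26.3-fold at day 19 and 11.3-fold at day 13, with the wild-type sums at 31 and 45 UMIs. In that cluster fibroblast and tendon markers summed to 5526 and 5421 CPM in the mutant at days 19 and 13, against 3189 and 2859 CPM in wild type at days 19 and 13. Chondrocyte markers summed to 76957 and 61753 CPM in the mutant at days 19 and 13, against 137763 and 129059 CPM in wild type at days 19 and 13, and the part of either list was not tested. In the Ucma and Sfrp5 cluster neither gene passed, Mt1 at -0.03 ± 0.163 (adjusted p = 0.973) and Mt2 at 0.34 ± 0.148 (adjusted p = 0.168), with 8.38% of 10643 genes called and 4.48% called higher. In the Col10a1 and Ihh cluster Mt1 had 0.83 ± 0.590 (adjusted p = 0.395) and Mt2 1.22 ± 0.695 (adjusted p = 0.287), with 15.4% of 9677 genes called. Without the filter on low counts both passed in that cluster (adjusted p = 4.71e-04 for Mt1 and 3.16e-07 for Mt2). The differences between clusters themselves were not tested.

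Outside the cartilage clusters, Mt2 rose in mutant fibroblast-like cells by 1.43 ± 0.169 (adjusted p = 0.0444), and it was 2.61-fold higher at day 19 and 2.60-fold higher at day 13. Mt1 in these cells had a log2 fold change of 0.91 ± 0.203 that did not pass (adjusted p = 0.219), at plain ratios of 2.06-fold at day 19 and 1.60-fold at day 13. There 0.292% of 9946 genes were called and 0.271% were called higher. The call of Mt2 was lost with RLE scaling (adjusted p = 0.102) and without the age term (adjusted p = 0.712). Acan, which drives the recombinase, was at 378 CPM in mutant day 19, 516 in wild type day 19, 397 in mutant day 13 and 956 in wild type day 13 in these cells. Chondrocyte markers summed to 17799 CPM in mutant day 19, 17989 in wild type day 19, 16029 in mutant day 13 and 24602 in wild type day 13 in these cells, and their part in the result was not tested. Of the clusters in this class, the one led by Clec3b and Mfap5 had 1683 CPM of Mt1 in mutant day 19, 676 CPM in wild type day 19, 873 CPM in mutant day 13 and 361 CPM in wild type day 13. The tendon-like cluster led by Tnmd, Angptl7 and Thbs4 had 964 CPM in mutant day 19, 455 CPM in wild type day 19, 224 CPM in mutant day 13 and 197 CPM in wild type day 13.

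Macrophage-like cells, the class with the highest mean of Mt1, showed no call, with a log2 fold change of -0.02 ± 0.214 for Mt1 (adjusted p = 0.995) and 0.54 ± 0.305 for Mt2 (adjusted p = 0.549), and 2.73% of 8065 genes called. The plain Mt1 ratio was 0.28 (0.10 to 0.46) on the log2 scale at day 19 and -0.25 (-0.40 to -0.11) at day 13. Erythroid-like cells also had no call, at 0.72 ± 0.202 for Mt1 (adjusted p = 0.0636) and 1.08 ± 0.365 for Mt2 (adjusted p = 0.141), with 3.35% of 7605 genes called. In monocyte-like cells Mt1 had 0.06 ± 0.318 and Mt2 2.43 ± 0.826 (adjusted p = 0.9998 and 0.481), on 1 to 19 UMIs of Mt2 per library, with 0.666% of 7206 genes called.

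In blood-like cells with low levels, 2 more calls were made. In B cell-like cells Mt2 rose by 2.18 ± 0.408 (adjusted p = 0.00548), at 19.1 CPM in mutant day 19, 2.83 CPM in wild type day 19, 11.6 CPM in mutant day 13 and 6.41 CPM in wild type day 13, with 2.56% of 11106 genes called, 1.75% higher and 0.81% lower. In neutrophil-like cells Mt1 rose by 1.21 ± 0.274 (adjusted p = 0.0110), at 48.1 CPM in mutant day 19, 18.0 CPM in wild type day 19, 48.8 CPM in mutant day 13 and 30.2 CPM in wild type day 13, with 3.53% of 6512 genes called, 2.12% higher and 1.41% lower. Mt1 in B cell-like cells (adjusted p = 0.134) and Mt2 in neutrophil-like cells (adjusted p = 0.0877) did not pass, and DESeq2 called neither of the 2 results (adjusted p = 0.350 and 0.9998). Acan, a cartilage gene, moved in the same cells: it fell in mutants by 1.33 on the log2 scale in B cell-like cells (adjusted p = 0.00572) and by 1.93 in neutrophil-like cells (adjusted p = 2.17e-07). Chondrocyte markers summed to 2566 CPM in mutant day 19, 2391 in wild type day 19, 3930 in mutant day 13 and 9233 in wild type day 13 in B cell-like cells. The part of free RNA in these calls was not tested.

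**Figure D4:**
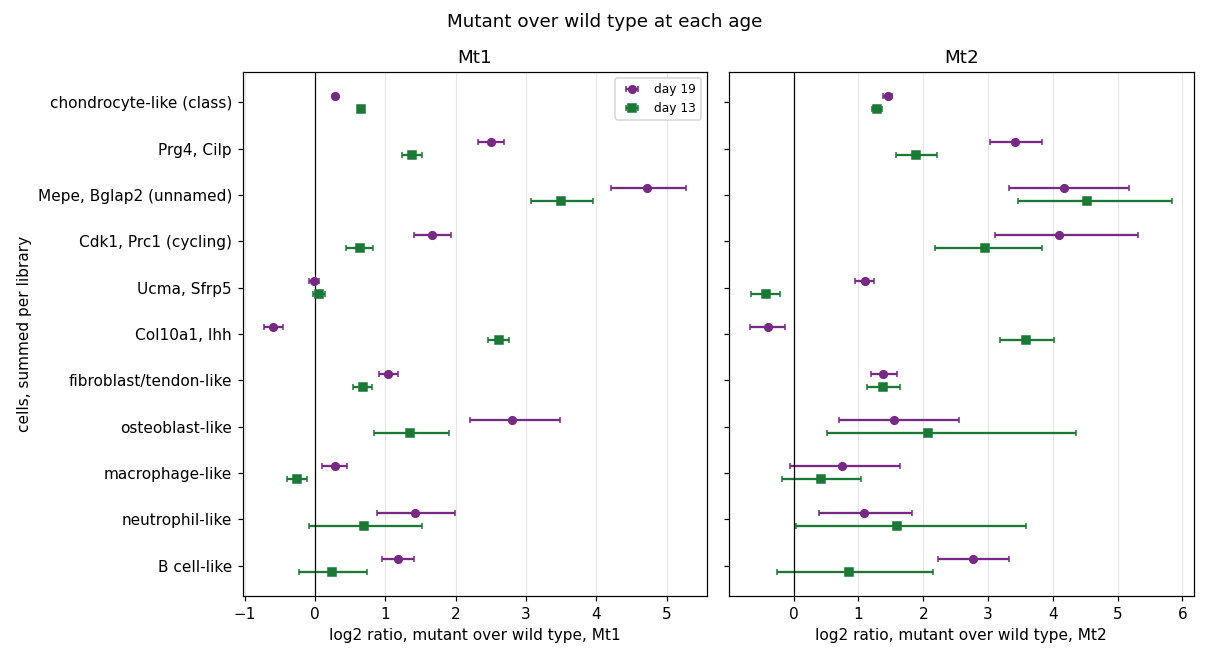
Log2 ratio of plain CPM, mutant over wild type, for Mt1 (left) and Mt2 (right), at day 19 (circles) and day 13 (squares), 1 library per genotype and age, with exact 95% counting intervals. For Mt2 the ratio is above 0 at both ages in the chondrocyte-like class (1.45 and 1.28) and in fibroblast-like cells (1.39 and 1.38), while the Ucma and Sfrp5 and the Col10a1 and Ihh clusters change sign between ages.

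Counted over classes with 20 or more cells in both libraries, Mt1 at day 19 was higher in the mutant in 10 of 12 classes, with an interval above 0 in 10, and Mt2 was higher in 12 of 12, with an interval above 0 in 10. At day 13 Mt1 was higher in 9 of 11 classes, with an interval above 0 in 3 and below 0 in macrophage-like cells, and Mt2 in 9 of 10, with an interval above 0 in 4. The classes of a library share its free RNA, so these counts are not independent.

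The age difference, for which the genes were picked, was seen in the chondrocyte-like class of both genotypes. It was not seen over all kept cells of wild type, whose mixture of classes differed between ages. There Mt1 was 268 CPM at day 19 and 287 CPM at day 13, and Mt2 was 44.2 and 48.9 CPM. Over all kept mutant cells Mt1 was 644 CPM at day 19 and 397 CPM at day 13, and Mt2 was 218 and 111 CPM. In chondrocyte-like cells the log2 ratio of day 19 to day 13 was 0.72 for Mt1 in the mutant (95% counting interval 0.69 to 0.75) and 1.09 in wild type (1.05 to 1.12). For Mt2 it was 1.10 in the mutant (1.04 to 1.16) and 0.94 in wild type (0.86 to 1.03). Erythroid markers moved with age in the same sums, at 4024 CPM in mutant day 19 and 969 CPM in mutant day 13, and at 9073 CPM in wild type day 19 and 2681 CPM in wild type day 13, and their part in the ratio was not tested. Among 7692 genes measured at 10 CPM or more, the median ratio was -0.01 in the mutant and 0.14 in wild type. A rise of 2-fold or more was found in 0.52% of them in the mutant, Mt2 among these, and in 2.35% in wild type, Mt1 among these. A fall of 2-fold or more was found in 0.156% in the mutant and 0.676% in wild type. Larger ratios than that of Mt2 were found for 34 genes in the mutant and for 209 in wild type, and larger ratios than that of Mt1 for 101 and 149 genes.

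The age ratio varied by kind of cell. Among classes with a ratio, Mt1 was higher at day 19 in 8 of 12 in the mutant, with an interval above 0 in 5 and below 0 in 2. In wild type it was higher in 6 of 11, with an interval above 0 in 3 and below 0 in 3. Mt2 was higher in 9 of 12 in the mutant, with an interval above 0 in 5 and below 0 in 1. In wild type Mt2 was higher in 4 of 8, with an interval above 0 in 3 and below 0 in 1. Fibroblast-like cells had the ratios of 2.96-fold in the mutant and 2.30-fold in wild type for Mt1, and 4.07-fold in the mutant and 4.06-fold in wild type for Mt2. Osteoblast-like cells had 3.06-fold for Mt1 in the mutant, while wild type, with 21 and 50 cells, had 1.12-fold (log2 interval -0.70 to 0.99). In the Ucma and Sfrp5 cluster Mt1 was 1.73-fold higher at day 19 in the mutant and 1.81-fold higher in wild type. In the Prg4 and Cilp cluster Mt1 was 1.66-fold higher at day 19 in the mutant, while its log2 ratio in wild type was -0.39 (-0.60 to -0.18). In the Col10a1 and Ihh cluster the log2 ratio was negative in the mutant, -0.86 for Mt1 and -0.51 for Mt2, and positive in wild type, 2.34 for Mt1 and 3.48 for Mt2. In macrophage-like cells Mt1 was lower at day 19, with a log2 ratio of -0.26 (-0.41 to -0.11) in the mutant and -0.79 (-0.97 to -0.62) in wild type. Haemoglobin and other erythroid markers summed to 25778 CPM in mutant day 19, 42376 in wild type day 19, 655 in mutant day 13 and 9993 in wild type day 13 in these macrophage-like cells, and their part in the ratio was not tested. In erythroid-like cells the log2 ratios were also negative, -0.75 for Mt1 in the mutant and -1.96 in wild type.

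Counted per cell, after each cell was thinned to 2000 UMIs, a Mt1 UMI was found in 39.4% of chondrocyte-like cells of mutant day 19 (exact 95% interval 37.2 to 41.5), 28.5% of wild type day 19 (25.7 to 31.4), 28.0% of mutant day 13 (26.2 to 29.9) and 20.01% of wild type day 13 (18.8 to 21.3). A Mt2 UMI was found in 24.4% in mutant day 19, 10.5% in wild type day 19, 13.6% in mutant day 13 and 6.997% in wild type day 13. In B cell-like cells, used as a low reference, the Mt1 shares were 6.15%, 2.66%, 7.14% and 3.66% in the same order of libraries and the Mt2 shares 3.91%, 0.654%, 3.25% and 1.83%. The chondrocyte-like shares were above these in every library. The B cell-like class includes the cluster led by Gm26917, Igll1 and Vpreb1, so its Mt1 shares may not be free RNA alone, which was not tested. Unthinned, the Mt1 shares were 61.0%, 50.7%, 53.6% and 42.3% in chondrocyte-like cells, at median depths of 9561, 16576, 10823 and 11738 UMIs, and 12.7%, 5.36%, 13.4% and 8.64% in B cell-like cells, at 2024, 2378, 2350 and 1898 UMIs. Cells too shallow to be thinned, and so not used, numbered 81, 14, 72 and 93 in the chondrocyte-like class. The B cell-like class lost a larger part. There 1024 of 2019, 2141 of 3338, 616 of 982 and 164 of 359 cells were used, in the same order of libraries. Its thinned shares are therefore those of its deeper cells. Macrophage-like cells had a Mt1 UMI in 48.1% of cells in mutant day 19, 43.1% in wild type day 19, 53.7% in mutant day 13 and 52.8% in wild type day 13.

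In wild type day 19 and mutant day 13, Mt1 was spread less evenly over chondrocyte-like than over macrophage-like cells. At a mean of 1.15 Mt1 UMIs per thinned cell in wild type day 19, the top 10% of chondrocyte-like cells held 70.3% of them, and at a mean of 0.91 in mutant day 13 it held 73.0%. In macrophage-like cells, with means of 0.90 to 1.46, the top 10% held 44.8% to 53.9%. The highest single chondrocyte-like cell had 92 Mt1 UMIs of its 2000, in mutant day 13, against 13 in macrophage-like cells. That chondrocyte-like sum held 2328 thinned cells, while macrophage-like sums held 72 to 154, and more cells give more room for a high one. The chondrocyte-like class also pools clusters of unlike Mt1 level, from 132 CPM (Prg4 and Cilp) to 907 CPM (C1qtnf3 and Prelp) in wild type day 19. Macrophage-like cells form a single cluster. The part of this pooling in the spread was not tested. Across chondrocyte-like cells of a library the thinned counts of both genes had a Pearson r of 0.53 in mutant day 19 (2055 cells), 0.43 in wild type day 19 (1008 cells), 0.50 in mutant day 13 (2328 cells) and 0.40 in wild type day 13 (4102 cells), given as a description, since the cells share a library and its free RNA.

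The other family members were rare. Mt4, known from stratified epithelium, had 32 UMIs over all kept cells in mutant day 19, 0 in wild type day 19, 0 in mutant day 13 and 2 in wild type day 13, where a count of 0, by the limit of 3 counts, allows up to 0.0536 CPM in wild type day 19 and 0.0427 CPM in mutant day 13. Mt3, first known as a growth inhibitory factor of the brain, had 139 UMIs in mutant day 19, 25 in wild type day 19, 62 in mutant day 13 and 270 in wild type day 13. Of these, 81, 12, 12 and 238 lay in macrophage-like cells. They came from 22 of 499 macrophage-like cells, 7, 2, 5 and 8 in the same order of libraries. Genes examined after these cells were seen show Acp5, Ctsk and Mmp9, enzymes of the bone-resorbing osteoclast, at 12482, 9378 and 4300 CPM in the 22 cells, against 600, 141 and 77.2 CPM in the other 477. Mt1 was 1229 CPM in the 22 cells and 596 CPM in the rest, while Mt2 was 35.4 CPM in the 22 cells and 37.5 CPM in the rest.

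Genes of the routes that are known to act on metallothioneins were counted in the same edgeR comparison of mutant with wild-type chondrocyte-like cells, against the 12.9% called higher and 10.9% called lower among all genes. Of 25 measured genes of zinc and copper handling, 3 rose, 2 fell and 20 did not pass, with a median log2 fold change of -0.12 against 0.01 for all genes tested. The zinc exporter Slc30a4 rose by 1.02 ± 0.167 (adjusted p = 0.00241), at 18.8 and 18.2 CPM in the mutant at days 19 and 13 against 7.29 and 8.37 CPM in wild type at days 19 and 13. The zinc importer Slc39a8 fell by 1.15 on the log2 scale, with 3.48 and 4.98 CPM in mutants and 9.08 and 7.34 CPM in wild type. The transporters Slc39a14, Slc39a13 and Slc11a2 and the copper chaperone Atox1 did not pass, with log2 fold changes of -0.12, 0.06, 0.19 and -0.17. Mtf1 itself had a log2 fold change of -0.12 ± 0.208 (adjusted p = 0.732), at 9.04 CPM in mutant day 19, 7.23 in wild type day 19, 6.73 in mutant day 13 and 7.34 in wild type day 13. Slc30a1 and Slc39a10, zinc transporters that MTF1 is known to raise and to lower, had log2 fold changes of -0.32 ± 0.252 and 0.26 ± 0.151, and neither passed (adjusted p = 0.406 and 0.260). In the Prg4 and Cilp cluster 0 of 22 tested genes of this list were called, where 8.26% of all genes were called. In the Ucma and Sfrp5 cluster 1 of 23 rose and 0 fell, where 8.38% of all genes were called.

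Of 12 glucocorticoid-responsive genes, 8 rose, 0 fell and 4 did not pass, with a median of 0.90 against 0.01. Fkbp5, a chaperone of the glucocorticoid receptor, was at 33.8 CPM in mutant day 19, 10.9 in wild type day 19, 14.2 in mutant day 13 and 6.19 in wild type day 13, and rose by 1.21 ± 0.177 (adjusted p = 0.00133). Zbtb16, a transcription factor, was at 30.1 CPM in mutant day 19, 14.0 in wild type day 19, 20.5 in mutant day 13 and 7.97 in wild type day 13. Ddit4, an inhibitor of mTORC1, was at 55.6 CPM in mutant day 19, 25.9 in wild type day 19, 45.5 in mutant day 13 and 14.5 in wild type day 13. Both rose, by 1.03 and 1.17. Sgk1, a kinase, had 0.15 ± 0.126 and did not pass, and the receptor gene Nr3c1 did not pass either (adjusted p = 0.990). In the Ucma and Sfrp5 cluster 6 of these 12 genes rose, where 4.48% of all genes were called higher. The Prg4 and Cilp cluster also had 6 of 12 that rose, where 4.62% of all genes were called higher.

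Of 12 genes of the NRF2 oxidative stress response, 1 rose, 4 fell and 7 did not pass in chondrocyte-like cells, with a median of -0.08. Hmox1, which degrades haem, was at 24.8 CPM in mutant day 19, 8.34 in wild type day 19, 35.3 in mutant day 13 and 8.56 in wild type day 13, and rose by 1.61 ± 0.155. Srxn1, which repairs peroxiredoxins, was at 56.4 CPM in mutant day 19, 84.3 in wild type day 19, 40.7 in mutant day 13 and 57.8 in wild type day 13, and fell by 0.75 on the log2 scale. Nqo1, Gclm and Txnrd1 also fell, while Txn1 and Prdx1 did not pass. In the Prg4 and Cilp cluster Srxn1 rose by 0.92, so its direction there was the opposite. Of 11 genes of this list tested in that cluster, 1 rose and 0 fell, where 8.26% of all genes were called. In the Ucma and Sfrp5 cluster 1 of 12 rose and 3 fell, where 8.38% of all genes were called.

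Of 11 genes of the interleukin 6 and STAT3 response, 5 rose, 1 fell and 5 did not pass, with a median of 0.55 against 0.01. Of 9 of these genes tested within clusters, 2 rose in the Prg4 and Cilp cluster and 1 in the Ucma and Sfrp5 cluster. Lcn2, a secreted iron-siderophore binder, was at 34.3 CPM in mutant day 19, 6.81 in wild type day 19, 20.003 in mutant day 13 and 2.86 in wild type day 13, and rose by 2.37 ± 0.166. Saa3, Socs3, Cebpb and Il6st also rose, and Il6ra fell by 0.60 on the log2 scale. Lcn2 is also in the list of neutrophil markers used to name cells. Those markers summed to 546 CPM in mutant day 19, 201 in wild type day 19, 148 in mutant day 13 and 62.6 in wild type day 13 in chondrocyte-like cells. Their part in the genotype and age values of Lcn2 was not tested. Bcl3, a nuclear IκB protein, had 0.60 ± 0.198 and did not pass (adjusted p = 0.0551). Of 13 immediate early and heat shock genes, 6 rose, 1 fell and 6 did not pass, among them Ier3, which rose by 1.18 ± 0.136, and Hspa1a, which rose by 0.92 ± 0.160, while Jun and Hspb1 did not pass. The median of these 13 genes was 0.27 against 0.01. In the Prg4 and Cilp cluster 5 of the 13 rose and 0 fell, where 4.62% of all genes were called higher. In the Ucma and Sfrp5 cluster 3 rose and 1 fell, where 4.48% of all genes were called higher. For age, over all genes measured at 10 CPM or more, 0.52% in the mutant and 2.35% in wild type were 2-fold or more higher at day 19, and 0.156% and 0.676% lower. Of 18 zinc and copper genes measured at 10 CPM or more, 0 were 2-fold or more apart between ages in either genotype, and of 11 glucocorticoid genes 1 (Fkbp5) was 2-fold or more higher at day 19 in the mutant and 0 in wild type. Of 9 interleukin 6 genes, 0 were so in the mutant and 1 (Lcn2) in wild type, and of 11 NRF2 genes and 13 immediate early and heat shock genes 0 were so in either genotype.

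Over 41 sums of a class in a library with 50 or more cells, from 12 classes, log2(CPM + 1) of Mt1 and Mt2 had a Pearson r of 0.73. Among 2425 genes with a mean of 50 CPM or more, the genes most like both, by the mean of their r with Mt1 and with Mt2, were Cpq, Pmp22, Dab2, Gas6, Igf1, Cxcl14, Colec12, Sulf2, Lrp1 and Tspan3, with mean r of 0.72 for Cpq and 0.68 for Tspan3. Cxcl14, a chemokine, was nearer to Mt2 (r = 0.78) than to Mt1 (r = 0.61), and Cpq, a carboxypeptidase, was nearer to Mt1 (0.78 against 0.66). The sums share libraries and their free RNA, so these values describe likeness and carry no test.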

How the data were processed

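RNA of single cells from 4 libraries was counted as UMIs. Each deposited matrix holds counts of UMIs for a gene in a barcode, not normalized, from Cell Ranger (per the file headers, version 3.1.0), with mm10 as the build and Seurat 3 also named per the submitters' processing notes. Per the labels' protocols, epiphyses were digested with Liberase and captured with Chromium version 3 chemistry. Ages and genotypes were taken from the sample labels, since the series' own design text names others.

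Barcodes under 500 genes or over 15% mitochondrial UMIs were removed. Doublets were barcodes with a Scrublet score over 0.2 (313, 119, 184 and 154 in mutant day 19, wild type day 19, mutant day 13 and wild type day 13), because the automatic threshold marked under 0.5% in 2 libraries. All libraries were clustered at once without Mt1 and Mt2 (scanpy 1.11.5, Python 3.11.15, 10000 UMIs per cell on a log scale, 2000 variable genes, 30 components, 15 neighbours, Leiden resolution 1.0, igraph 0.11.9). Clusters were called "-like" from markers among their leading genes. Where those gave no name, 10 chondrocyte markers at 3-fold above the blood clusters gave the chondrocyte name, unless another type had more markers than chondrocytes among the 10 leading genes, which kept the Myoc and Pi15 cluster and 1 smaller cluster out. This second rule, and the one that left mixed clusters unnamed, were set after the clusters were seen, so other names would give other class values.

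UMIs were summed per class and library and tested with edgeR 4.0.16 (R 4.3.3, limma 3.58.1; TMM, filterByExpr, Benjamini-Hochberg at 0.05, genotype and age additive) over all genes, for classes and clusters with 50 or more cells in every library. The procedure was tested on simulated data. Ratios at 1 age or in 1 genotype are of plain CPM with exact counting intervals, for 20 or more cells, and shares have exact Clopper-Pearson intervals (scipy 1.17.1). Alternatives were DESeq2 1.42.0, other scaling, filters, covariates, clusterings and cell sets.

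The members and lists were chosen with earlier results of these data known. The text names Mt1 to Mt4, Sox9, Acan, Mtf1, Slc30a1, Slc39a10, up to 4 members per list by age ratio, and the 10 genes most like the members. Slc30a4, Slc39a8, Nr3c1, Nqo1, Gclm, Txnrd1, Saa3, Socs3, Il6st and the osteoclast genes were named after their values were seen. Annotation is GENCODE M21 and promoters are RefSeq.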

Additional observations from a re-analysis of the deposited data

Results flagged for a closer look

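The results here are those in which the 2 ages, or the 2 genotypes, moved in opposite directions. None of these differences was tested, since each rests on 1 library per group, and all values are log2 ratios of plain CPM.

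In the Col10a1 and Ihh cluster the mutant to wild-type ratio of Mt1 was -0.59 at day 19 and 2.61 at day 13, and that of Mt2 was -0.40 at day 19 and 3.59 at day 13. In the same cells the ratio of day 19 to day 13 was -0.86 for Mt1 in the mutant and 2.34 in wild type, and -0.51 for Mt2 in the mutant and 3.48 in wild type. The sums held 95 to 335 cells per library, at median depths of 19195 to 32797 UMIs, and the wild-type library of day 13 was the low one for both genes.

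In the Ucma and Sfrp5 cluster the mutant to wild-type ratio of Mt2 was 1.10 at day 19 and -0.43 at day 13. In the Prg4 and Cilp cluster the ratio of day 19 to day 13 of Mt1 was 0.73 in the mutant and -0.39 in wild type. In macrophage-like cells the mutant to wild-type ratio of Mt1 was 0.28 at day 19 and -0.25 at day 13.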

How the results depend on the processing

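Of 127 repeats of the genotype tests under other settings, 106 kept direction and call. Log2 fold changes of Mt1 that turned were 0.022 in the Ucma and Sfrp5 cluster and 0.0109 in macrophage-like cells with plain library sizes, and -0.0200 in chondrocyte-like cells without the pair of mutant-only clusters (chosen after seeing the data), where the main values were -0.03, -0.02 and 0.26. Mt1 in chondrocyte-like cells passed at 0.47 with plain library sizes, which moved the median of all genes to 0.22, at 0.64 with Leiden resolution 0.5, at 0.46 over all skeletal-lineage cells and at 0.59 with the Myoc and Pi15 cluster (chosen after seeing the data). Without the filter on low counts these passed: in the Col10a1 and Ihh cluster Mt1 (0.78) and Mt2 (1.17), Mt1 in fibroblast-like (0.92), Mt2 in erythroid-like (1.05) and Mt2 in neutrophil-like cells (1.29). Without the age term these no longer passed: Mt2 in chondrocyte-like (1.21, adjusted p = 0.110), B cell-like (2.09) and fibroblast-like (1.51) and Mt1 in neutrophil-like cells (1.20). DESeq2 lost Mt2 in B cell-like (1.90), Mt1 in the Prg4 and Cilp cluster (1.89) and Mt1 in neutrophil-like cells (1.19), the last also with plain library sizes (1.13), and RLE scaling lost Mt2 in fibroblast-like cells (1.43). Mt2 in chondrocyte-like cells ranged from 0.76 to 1.65 over all settings, with adjusted p from 1.84e-09 to 0.110. DESeq2 gave no adjusted p for Mt2 in monocyte-like cells. Counts of genes called moved by over 1.5 times in these cases. With DESeq2 they were 2071 in chondrocyte-like (3459 with edgeR), 77 in B cell-like (284), 41 in neutrophil-like (230), 45 in erythroid-like (255), 28 in macrophage-like and 26 in monocyte-like cells (220 and 48). In the clusters DESeq2 called 164 genes with Prg4 and Cilp (841), 206 with Mepe and Bglap2 (826), 155 with Ucma and Sfrp5 (892) and 612 with Col10a1 and Ihh (1489). Without the age term edgeR called 2276, 11, 27, 36, 14 and 3 genes in the same order of classes and 155, 284 and 120 in the first 3 of these clusters. Chondrocyte-like cells had 2129 without the mutant-only clusters and 1876 thinned, fibroblast-like cells (29) had 5 with RLE scaling, 75 with plain library sizes and 386 without the filter, monocyte-like cells had 166 without the filter, and plain library sizes gave 146 in neutrophil-like and 114 in erythroid-like cells.

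The age ratio kept its sign throughout. For Mt1 in mutant chondrocyte-like cells (0.72) it moved to 0.80 with doublets kept, 0.91 at resolution 0.5, 0.65 with Mt1 and Mt2 in the clustering, 1.11 over skeletal-lineage cells, 0.94 with the Myoc and Pi15 cluster, 0.46 without the mutant-only clusters and 0.94 with thinned cells. For Mt1 in wild type (1.09) it moved to 1.04 at resolution 0.5, 1.05 with both genes in the clustering, 1.02 over skeletal-lineage cells and 0.87 with thinned cells. For Mt2 in the mutant (1.10) it moved to 1.21 with doublets kept, 0.90 with both genes in the clustering, 1.39 over skeletal-lineage cells, 1.23 with the Myoc and Pi15 cluster and 1.22 with thinned cells, and for Mt2 in wild type (0.94) to 0.77 with thinned cells. The share of chondrocyte-like cells with a Mt1 UMI was 31.2%, 22.9%, 22.2% and 14.8% at 1000 UMIs per cell and 61.0%, 50.7%, 53.6% and 42.3% unthinned in mutant day 19, wild type day 19, mutant day 13 and wild type day 13, and with a Mt2 UMI 16.9%, 6.47%, 8.27% and 4.10% at 1000 UMIs and 41.6%, 28.4%, 30.6% and 15.7% unthinned. The causes of these moves were not tested.

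No paired analysis was possible because the labels give no replicate numbers, apart from the match by age that the age term of the main test makes. With 1 library per genotype and age there is no replicate to leave out. Batch, mouse and group cannot be told apart. Levels near those of B cell-like cells cannot be told from free RNA at this depth.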
